A study of Mus musculus with 2 samples.

Results

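The members described here are the 10 genes of the first control step of the cell cycle in mouse: the D cyclin genes Ccnd1, Ccnd2 and Ccnd3, the kinase genes Cdk4 and Cdk6, and the inhibitor genes Cdkn1a, Cdkn1b, Cdkn1c, Cdkn2b and Cdkn2c. They were chosen by name, as every probe set that the platform's annotation assigns to exactly 1 of these symbols. Earlier results of these data were known when the names were chosen. All 10 were found among 18193 named genes, with 26 probe sets between them. The cells were superficial zone cells, the chondrocytes next to the joint surface, taken from the joints of femur and tibia in ICR mice aged 4 days, and grown in DMEM with 10% serum. One culture had no retinoic acid (control, n = 1) and the other had 10 μM retinoic acid, the active form of vitamin A, for 24 h (n = 1). No genotype or other agent is given in the labels, and nothing there says how many animals each culture held or whether both came from 1 cell preparation. Each RNA went on 1 Affymetrix whole-genome mouse array. With 1 array per group no test was possible, no p-value is given, and each ratio describes these 2 cultures.

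A cell that receives growth signals makes D cyclins, which bind and activate the kinases CDK4 and CDK6. These kinases phosphorylate the retinoblastoma protein RB and its relatives, which then release E2F transcription factors, and genes of DNA synthesis are switched on. The Ink4 proteins (p15 from Cdkn2b, p18 from Cdkn2c) bind CDK4 and CDK6 alone and keep cyclins away. The Cip/Kip proteins (p21 from Cdkn1a, p27 from Cdkn1b, p57 from Cdkn1c) bind whole cyclin and kinase complexes and block those of CDK2 most strongly. In cartilage, cyclin D1 is known as a growth signal target that drives chondrocyte division, and p57 as a gene of chondrocytes that have stopped dividing.

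Values are MAS5 signals, a linear brightness for each probe set. A signal at or below the array's median over all probe sets but controls (the floor, 26.5 for control and 29.7 for retinoic acid) was counted as not measured. Where a gene has several probe sets, its value is that of the brightest one, by mean log2 signal. Of the 26 probe sets 23 were above the floor on both arrays, 2 on the retinoic acid array alone and 1 on neither, and every gene had at least 1 above it on both. The pooled SD of log2 ratios among probe sets of the same gene, over 4993 genes, was 0.30 and is the only repeat measurement. It covers the scatter between probe sets, dim and bright, read on the same 2 RNAs, and not the variation between repeat cultures. A log2 ratio smaller in size than this 1 SD is called within the scatter below. Signals of different probe sets are not on a common scale, so levels were not compared between genes.

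The main differences were in 3 genes. Ccnd1 was 1.96-fold higher with retinoic acid, Cdk4 was 1.51-fold higher, and Cdkn2b, the inhibitor gene that encodes p15, was 1.92-fold lower. The log2 ratios, always retinoic acid minus control, ran from -0.94 for Cdkn2b to 0.97 for Ccnd1. In 6 genes more than 1 probe set passed the floor on both arrays, and within each gene these had the same sign. Within the 4 other genes (Ccnd3, Cdkn1c, Cdkn2b and Cdkn2c) the value rests on a single probe set. Counted over all members, 9 of 9 probe sets were higher for the 4 genes with a positive ratio. For the 6 with a negative one, 14 of 14 were lower. These counts include the brightest probe set of each gene, which sets the gene's sign and so could not disagree with it. Only the dimmer sets of genes with more than 1 were free to differ.

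**Figure D1:**
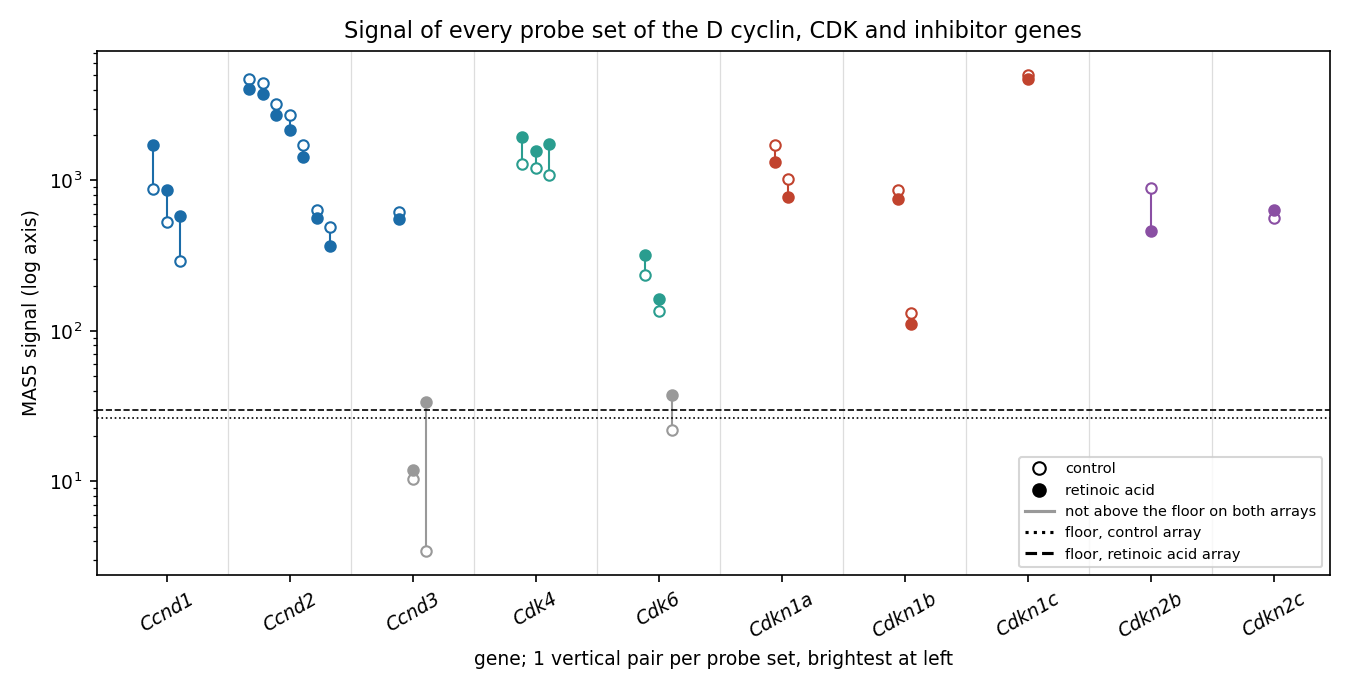
MAS5 signal (log axis) of all 26 probe sets of the 10 genes, each drawn as a pair of points for the control array (open) and the retinoic acid array (filled), with each array's floor as a horizontal line. The 3 pairs of Ccnd1 point upwards, the 7 of Ccnd2 downwards, and the 3 grey pairs, from Ccnd3 and Cdk6, were not above the floor on both arrays.

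Among the D cyclins, Ccnd1 stood apart from Ccnd2 and Ccnd3. The brightest Ccnd1 probe set read 871 in control and 1709.95 with retinoic acid. The next read 529 and 866, and the dimmest 290.03 and 582. The retinoic acid array was higher in each case, and the log2 ratios were 0.97, 0.71 and 1.004, with a mean of 0.90 ± 0.16 (SD, n = 3 probe sets of the same 2 RNAs). Of the genes measured on these arrays 6.82% had a higher ratio than Ccnd1.

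Ccnd2, which encodes cyclin D2, was slightly lower with retinoic acid on all 7 of its probe sets. The 3 brightest read 4743 and 4067, 4429.7 and 3775, and 3224 and 2725 in control and with retinoic acid. The remaining 4 read 2728 and 2171, 1730.1 and 1435, 637 and 559, and 490.4 and 367. No probe set departed from this direction, although their log2 ratios were small, from -0.42 to -0.19, with a mean of -0.27 ± 0.078 (SD, n = 7 probe sets). The ratio of the brightest probe set, a 1.17-fold lower signal, was within the 0.30 scatter between probe sets. Ccnd3, which encodes cyclin D3, read 614 and 550.2 on its bright probe set, 1.12-fold lower, which is also within that scatter. Its other probe sets could not be read as a change. One gave 10.3 and 11.9, below the floor on both arrays, and the other gave 3.45 and 33.8, just above the floor on the retinoic acid array only.

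The kinase genes were both higher with retinoic acid. Cdk4 read 1285 and 1945 on its brightest probe set, 1202 and 1569 on the next, and 1083 and 1738 on the dimmest. All 3 were higher with retinoic acid, with log2 ratios of 0.60, 0.38 and 0.68 and a mean of 0.55 ± 0.15 (SD, n = 3 probe sets). The brightest carries the suffix that Affymetrix gives to probe sets that may cross-hybridise to other transcripts. With that set left out, the brightest of the other 2 sets the value at 0.38, which is 1.31-fold. The dimmest, of nearly equal signal, was 1.60-fold higher. Cdk6 read 236 and 320.4, and 136 and 164, on the 2 probe sets that passed both floors, with log2 ratios of 0.44 and 0.27. The smaller of these is within the scatter between probe sets. The dimmest Cdk6 probe set went from 21.9, below the control floor, to 37.4.

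Cdk4 had the highest ratio among the members with a start region in the RefSeq promoter table, so its sequence is shown. Of the 10 members 7 matched that table, with 10 start regions; Ccnd1, Ccnd2 and Cdkn1c did not. The 250 bases before the Cdk4 start (RefSeq, GRCm38.p6, chr10:127063285-127063534, plus strand) are printed 5′ to 3′ with each CACGTG in capitals, an E box, the letters bound by MYC and related factors.
Cdk4: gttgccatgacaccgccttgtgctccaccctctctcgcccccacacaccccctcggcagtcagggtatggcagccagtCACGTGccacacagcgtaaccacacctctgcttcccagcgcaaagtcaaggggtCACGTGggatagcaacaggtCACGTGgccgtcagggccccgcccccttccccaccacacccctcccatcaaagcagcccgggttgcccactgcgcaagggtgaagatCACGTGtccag
The motif, which reads the same on both strands, occurs 4 times, at 172, 118, 98 and 11 bases before the start. At least 1 copy was in 6.02% of the 32851 windows of this length in the table, and 4 or more were in 7 of them (0.0213%). The cut of 4 is the count of Cdk4 itself, and the E box was 1 of several motifs searched. These shares are therefore descriptions and no test. Among the members only Cdk6 also held it, once, at 220 bases before the start. A retinoid receptor half-site, AGGTCA, begins at 102 and overlaps the copy at 98; 14.0% of windows hold that half-site on either strand. Neither a direct repeat of AGGTCA spaced by 5 bases nor one spaced by 2 was in any of the 10 member windows, against 3 windows each in the whole table. The array does not measure binding, and these matches are descriptions of the letters alone. Myc itself, measured on 1 probe set above the floor on both arrays, read 746 in control and 321 with retinoic acid, 2.32-fold lower.

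The Cip/Kip inhibitor genes were all lower, by small amounts. Cdkn1a, whose product p21 is induced by p53, read 1733 and 1328 on its brighter probe set and 1025 and 778 on the dimmer one. Both gave nearly the same ratio (log2 -0.38 and -0.40), a 1.30-fold and a 1.32-fold lower signal. Cdkn1b, which encodes p27, read 863 and 752, and 132 and 111, so it was 1.15-fold and 1.19-fold lower. Cdkn1c, the p57 gene, has a single probe set, which read 5053 and 4705, 1.07-fold lower. The ratios of Cdkn1b and Cdkn1c were within the scatter between probe sets, and that of Cdkn1a was beyond it. That limit is 1 SD and is no test of a change. The median log2 ratio of the 3 genes was -0.20.

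The Ink4 genes went opposite ways. Cdkn2b read 888 in control and 463 with retinoic acid, and 4.90% of measured genes had a lower ratio. Cdkn2c, which encodes p18 and is itself an E2F target gene, read 563 and 636, 1.13-fold higher, within the scatter between probe sets. Each has a single probe set, so neither value has a repeat. Cdkn2a, the gene next to Cdkn2b on the chromosome in RefSeq and the source of p16 and p19Arf, is not one of the 10. Its probe set read 66.8 and 51.7, 1.29-fold lower.

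Cdkn2b had the lowest ratio of the set, and its start region is shown for that reason. The 250 bases before the start (RefSeq, GRCm38.p6, chr4:89311033-89311282, minus strand) are given 5′ to 3′, with a cyclic AMP response element, TGACGTCA, in capitals.
Cdkn2b: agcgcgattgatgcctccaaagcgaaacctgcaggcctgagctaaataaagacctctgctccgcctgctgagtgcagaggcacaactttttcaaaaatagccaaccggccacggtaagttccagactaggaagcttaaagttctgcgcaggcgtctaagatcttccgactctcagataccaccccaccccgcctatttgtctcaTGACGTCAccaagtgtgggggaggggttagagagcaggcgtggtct
The element begins 46 bases before the start and reads the same on both strands. It was in 1.55% of all 32851 windows and in no other of the 10 member windows. The Cdkn2b window held no GC box (GGGCGG, either strand), while 5 members did, namely Ccnd3, Cdk4, Cdkn1a, Cdkn1b and Cdkn2c, and 32.7% of all windows. None of the 3 E2F site spellings searched on both strands (TTTCCCGC, TTTGGCGC and TTTCGCGC) was in a member window, and 1.53% of all windows held at least 1.

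**Figure D2:**
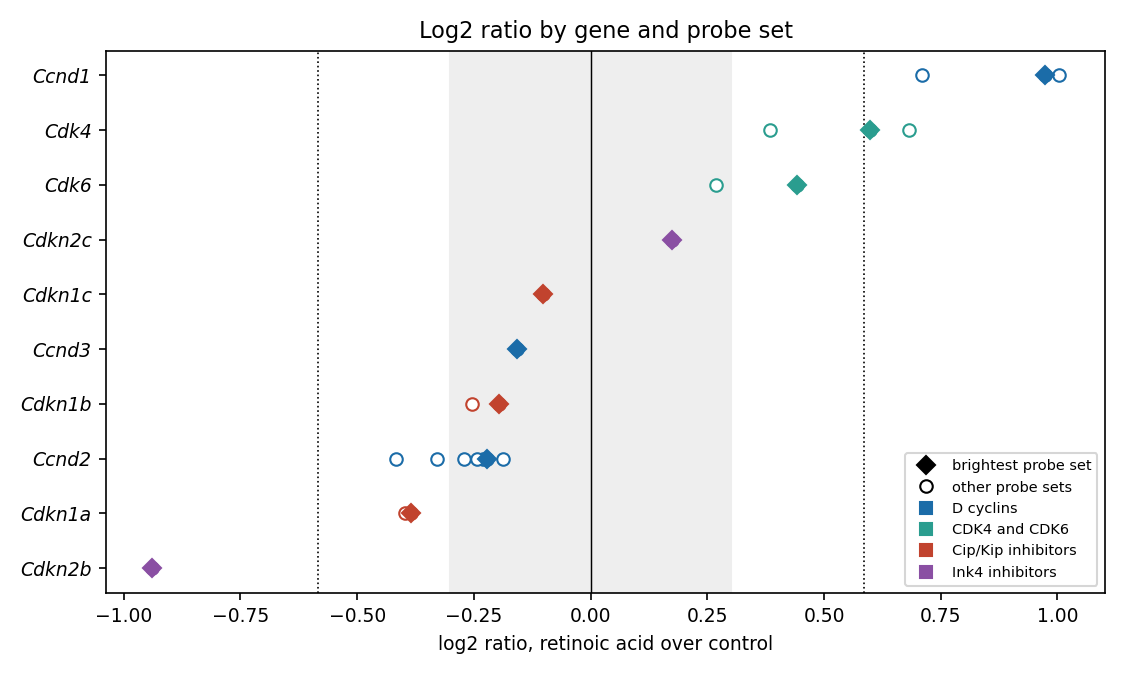
Log2 ratio of retinoic acid over control for each gene, with the brightest probe set as a diamond and other probe sets that passed both floors as open circles. The grey band is ± 0.30, the SD between probe sets of a gene, and the dotted lines mark 1.5-fold; Ccnd1 and Cdkn2b lie beyond these lines on all their probe sets, and Cdk4 on 2 of 3.

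Taking the 5 positive regulators (D cyclins and kinases) together, 3 were higher and 2 lower, with a median log2 ratio of 0.44. Of the 5 inhibitors 1 was higher and 4 were lower, with a median of -0.20. The medians were 0.52 for the 2 kinases, -0.16 for the 3 D cyclins and -0.38 for the 2 Ink4 genes. Over all 10 the median was -0.13, beside 0.017 for all 11884 measured genes. Among the 10722 genes that passed both floors, 51.3% had a ratio above 0.

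Few of the 10 passed a fold of 1.5, and their number is near what all genes show. At least 1.5-fold higher were 2 of 10, Ccnd1 and Cdk4, against 14.3% of all 11884 measured genes. At least 1.5-fold lower was 1 of 10, Cdkn2b, against 11.4%. Ratios of dim genes scatter more, and all 10 members had signals of at least 200 on both arrays. Among the 5924 genes that bright, 10.4% passed 1.5-fold upwards and 7.82% downwards. No member reached 2-fold in either direction, by which 6.54% of measured genes were higher and 4.34% lower (4.05% and 2.33% of the bright genes). The middle 90% of the bright genes ran from a log2 ratio of -0.75 to 0.89, so Ccnd1 and Cdkn2b lay just outside that span and the other 8 members inside it. Cdk6, Cdk4 and Cdkn1a were outside the middle 50% (-0.24 to 0.26), and the remaining 5 within it.

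**Figure D3:**
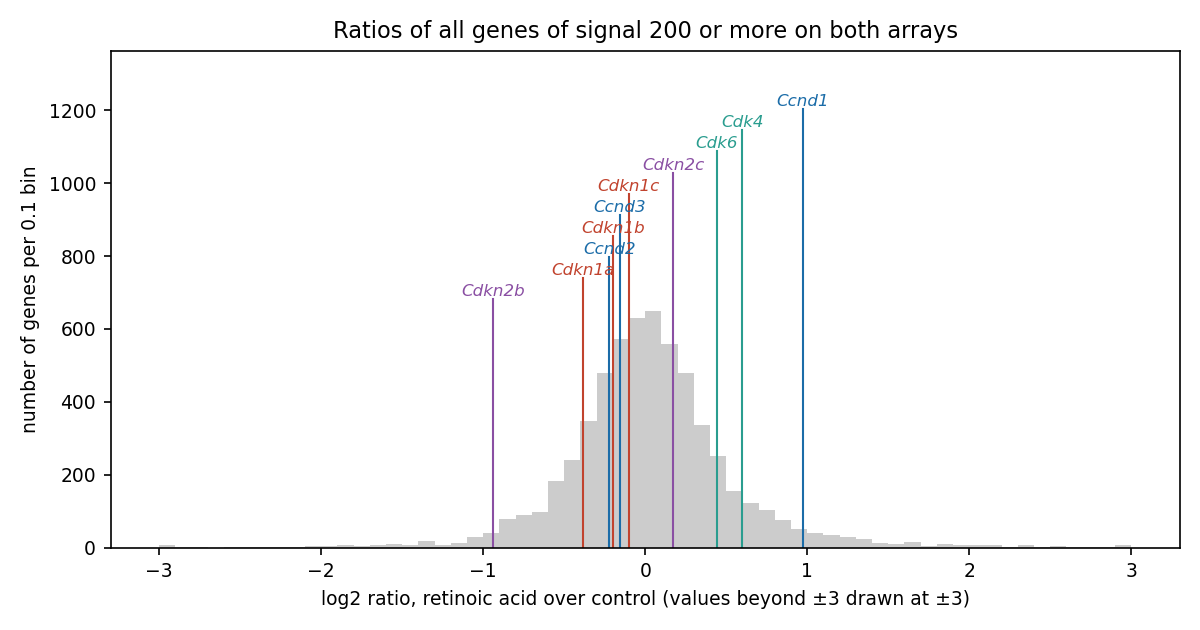
Number of genes by log2 ratio of retinoic acid over control (bins of 0.1) for the 5924 genes with a signal of 200 or more on both arrays, with a coloured line at the value of each of the 10 members (line heights only space the names). Cdkn2b at -0.94 and Ccnd1 at 0.97 lie in the tails, and the rest lie between -0.38 and 0.60.

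The other genes of the pathway were read from 10 lists of 104 genes, of which 99 were measured. As background, these hold the partners upstream and downstream of the D cyclin kinases. Past 1.5-fold, 27 of the 99 (27.3%) had a higher signal and 7 (7.07%) a lower one, against 14.3% and 11.4% of all measured genes. Past 2-fold the numbers were 7 (7.07%) and 2 (2.02%), against 6.54% and 4.34%, so near or below the share of all genes. The counts in the lists below, each of few genes, are to be read beside these shares. The lists were chosen with earlier results of these data known, so an excess over all genes is a description and no test. The pooled median log2 ratio was 0.32, beside 0.017 for all measured genes.

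Downstream, the cyclins and kinases that act after the D cyclins were mostly higher. Past 1.5-fold, 5 of 7 measured genes were higher and 0 lower, and the median log2 ratio was 0.83. Ccnb2, a mitotic cyclin gene, read 187 and 379.98 (2.03-fold), Ccnf 33.5 and 66.8 (1.99-fold, close to the floor), and Ccne2, a partner of CDK2, 126 and 248 (1.97-fold). Ccna2, the cyclin A gene of S phase, was 1.78-fold higher, and Cdk1, the mitotic kinase gene, read 369 and 648. The proliferation marker Mki67 was 2.58-fold higher. Ccnb1 was not analysed here.

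Of the 17 measured E2F target genes of DNA synthesis, 8 passed 1.5-fold upwards, 3 of these 2-fold, and 0 passed 1.5-fold downwards. The median was 0.48. Tk1, which encodes thymidine kinase, read 121 and 294 (2.44-fold). Gins1, a subunit of the replicative helicase, read 52.9 and 124 (2.35-fold), and Rrm1, a subunit of ribonucleotide reductase, 294 and 661 (2.25-fold). Mcm5 was 1.99-fold higher, and its second probe set agreed in direction (log2 0.91). Mcm3 and Mcm6 had probe sets of both signs. The 4 of Mcm3 ran from a log2 ratio of -0.59 to 0.34, and the 2 of Mcm6 were at -0.15 and 0.22. Tyms was below the floor.

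RB and E2F genes themselves differed less. Past 1.5-fold, 2 of 13 measured genes were higher and 0 lower, against 14.3% and 11.4% of all measured genes. The median was 0.15. Tfdp2, an E2F partner, was 2.01-fold higher on its brightest probe set, but its 3 probe sets ran from a log2 ratio of 0.26 to 1.01. E2f7, a repressor E2F, was 1.58-fold higher, and Rb1 read 296 and 408 (1.38-fold). E2f5 was 1.31-fold higher on its brightest probe set, and another of its 3 was at -0.12. In the list of MuvB, the complex that represses cell cycle genes in resting cells and works with B-MYB and FOXM1 in dividing ones, 1 of 7 passed 1.5-fold. That was Lin9, at 1.55-fold higher, followed by Lin54 (1.42-fold). Mybl2, the B-MYB gene, went from 22.2, below the control floor, to 36.5, and Rbbp4 was 1.29-fold higher.

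Genes whose products set the activity of CDKs by phosphorylation, or the stability of cyclins and p27, went both ways. Among 8 genes of CDK phosphorylation, 4 passed 1.5-fold upwards and 1 downwards. Those 4 were the phosphatase genes Cdc25a (1.95-fold) and Cdc25c (1.87-fold, from 31.6 to 59.1) and the inhibitory kinase genes Wee1 (1.92-fold) and Pkmyt1 (1.63-fold, from 33.1 to 54.1). The control signals of Cdc25c and Pkmyt1 are close to the floor, and a second Cdc25c probe set had a log2 ratio of 0.25. The median log2 ratio of the 8 genes was 0.58, which became -0.20 when the floor was raised to the 70th percentile and 0.18 when the median over each gene's probe sets was taken. On their brightest probe sets all 3 genes of the CDK-activating kinase had lower signals. Cdk7 read 1447 and 932 and passed 1.5-fold, but its 5 probe sets above both floors ran from a log2 ratio of -0.63 to 0.26. Ccnh read 1157 and 879, and Mnat1 417 and 364. Among 13 measured genes listed with ubiquitin ligases that act on D cyclins, p27 or cyclin E, 2 passed 1.5-fold upwards and 2 downwards. Cul1, the scaffold of some of these ligases, read 527 and 1426 (2.70-fold higher), and Cks2 653 and 1268 (1.94-fold higher). Fbxo4, a receptor described for cyclin D1, read 302 and 173 (1.74-fold lower), and Fbxw7, the receptor for cyclin E, was 1.57-fold lower, with probe sets from -0.66 to -0.19. Rbx1 was below the floor.

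Other target genes of p53, which induces Cdkn1a, went both ways. Past 1.5-fold, 3 of 11 were higher and 2 lower, against 14.3% and 11.4% of all measured genes. The median log2 ratio was 0.017. Gadd45a, a growth arrest gene, read 1689 and 3324 (1.97-fold higher), Zmat3 376 and 739 (1.97-fold higher) and Sesn1 306 and 592 (1.94-fold higher). Sesn2, also a target of the amino acid stress response, read 441 and 224 (1.97-fold lower). Trp53 and Bax were not analysed here. Of 9 SMAD, FOXO and related factors 0 passed 1.5-fold upwards and 2 passed 2-fold downwards. These were Myc and Klf4, which encodes a factor that activates Cdkn1a in other tissues and read 2203 and 501 (4.40-fold lower). Smad2 was 1.42-fold lower on its brightest probe set and higher on another (log2 0.47), and Zbtb17, the Miz1 gene, also had probe sets of both signs (-0.19 and 0.46).

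Among 5 other CDK inhibitor genes, Cdkn3 alone passed 1.5-fold. It encodes a phosphatase of CDK2 that is made in dividing cells, and it read 112 and 192 (1.72-fold higher). Cables1 was 1.32-fold lower, and Cdkn2d, the p19 gene, was 1.29-fold higher.

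Markers of the labelled cells were present and lower with retinoic acid. All 7 superficial zone and chondrocyte markers were above the floor on both arrays. All 7 had lower signals with retinoic acid. Prg4 read 1919.8 and 1148, Col2a1 9538 and 7366, and Sox9 1024 and 94.8. Acan read 5066 and 157 (32.3-fold lower), the lowest ratio of all measured genes. Matn1 was 5.54-fold, Erg 1.37-fold and Comp 1.27-fold lower. Of 5 smooth muscle and pericyte markers 4 were measured, and Acta2 read 3165 and 4339.6. Rgs5 was 2.93-fold and Tagln 1.99-fold higher, Cnn1 was 1.65-fold lower, and Myh11 was below the floor. Of the 4 measured leukocyte markers 3 were higher and 1 lower, with 0 past 1.5-fold. Ptprc and Itgam were below the floor, and 4 of 5 endothelial markers were below it. The adipocyte marker Fabp4 read 244 and 2689, while Adipoq was below the floor on both arrays. Of 3 measured skeletal muscle markers 1 was higher and 2 were lower. Among 3 measured osteoblast markers Sp7 read 125 and 41.6, while Ibsp (71.3 and 81.0) and Dmp1 (15.9, below the control floor, and 40.9) were higher. The erythroid markers found were below the floor. Past 1.5-fold, 1 of 4 tendon markers was higher and 2 lower. The part of these shifts in the ratios of the 10 genes was not tested, and fewer cells of a type and less RNA per cell cannot be told apart in bulk RNA.

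Other ways of processing the same arrays left 9 of the 10 genes on the same side of 0. Not every alternative could have changed this. The other floors and the lack of a floor returned the same value for each gene, since the brightest probe sets lie above them all. Cdkn1c, Cdkn2b and Cdkn2c have a single probe set, so the rules for probe sets could not move them either. The 1 gene that changed side was Ccnd3, at 0.097 when the median over its probe sets was taken. That rule brings in the set just above the floor on 1 array. Cdk4 sat on the 1.5-fold line, at 0.60 as reported, and was below it, between 0.38 and 0.58, under 4 of 9 alternatives. Ccnd1 stayed between 0.89 and 0.97 and Cdkn2b between -1.001 and -0.89.

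**Figure D4:**
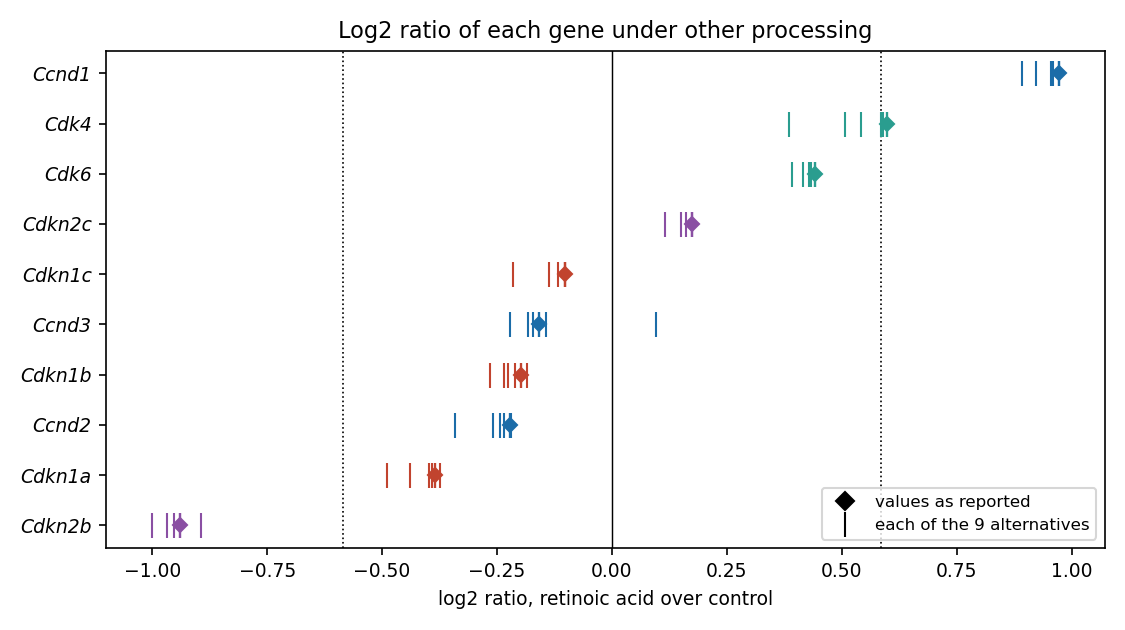
Log2 ratio of retinoic acid over control of each gene as reported (diamond) and under each of the 9 alternative ways of processing (ticks), with dotted lines at 1.5-fold. Ccnd1 and Cdkn2b stay beyond these lines throughout, the ticks of Cdk4 reach down to 0.38, and 1 tick of Ccnd3 is above 0.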

How the data were processed

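Total RNA from 2 cultures was labelled from 100 ng per the labels' protocols and read on 1 array each. The deposited values are intensities, the authors' linear MAS5 signals; MAS5 is named in the submitters' processing notes, while no version, scaling target or detection call is given in the sources used here. Signals were used without further scaling (the ratio of 2% trimmed means was 1.06). Of 45037 probe sets other than controls, 34945 carry 1 gene symbol in the platform annotation and only these were used. Signals at or below each array's median were raised to it before the ratio was taken, and a gene was counted as measured when it was above the median on at least 1 array. Folds of 1.5 and 2 were counted. The limit of 200 for bright genes was chosen after the data were seen. The members and lists were chosen with earlier results of these data known. Named genes were all members, in each list the 4 measured genes farthest from a ratio of 0 on the log2 scale, Mki67, Cdk1, Ccna2, Prg4, Col2a1 and Sox9. Cdk7, Ccnh, Mnat1 and the other cell type markers were named after their values were seen. The steps were run on simulated data, made from the control array with ratios of known size put in. This checked that the ratios came back, not how reliable 1 array per group is. The 9 alternatives were floors at the 30th and 70th percentile, no floor, the median as an offset, 3 scalings, and 2 rules for probe sets. Promoter letters came from a RefSeq table. The tools were statsmodels 0.14.6 (loess, span 0.3), pandas 2.3.3, numpy 2.4.6, matplotlib 3.10.9 and scipy 1.17.1 under Python 3.11.15.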

Additional observations from a re-analysis of the deposited data

How the results depend on the processing

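Of the 10 genes, 2 were at least 1.5-fold higher as reported. The number was 1 with the median log2 ratio set to 0, with quantile normalization and with loess. It was also 1 with only probe sets of the suffix _at or _a_at. In each, Cdk4 was the gene no longer counted. Its brightest probe set is left out of the last of these, where its value of 0.38 is that of the _a_at set. The Cdk4 set with the plain suffix _at was at 0.68. No gene was at least 2-fold lower as reported, and 1 (Cdkn2b) was after quantile normalization. The median log2 ratio over the 10 genes was -0.13 as reported. Under the 9 alternatives it ran from -0.22 with quantile normalization to -0.0029 with the median over each gene's probe sets. Each shift was smaller than the scatter between probe sets. That scatter is larger than the median itself, so this limit cannot show whether the median held. Of the other pathway genes, 7 were at least 2-fold higher as reported and 4 with the median signal added as an offset.

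Counts over all genes depend on the floor, which decides how many dim genes are counted. At least 1.5-fold higher were 1021 genes with the floor at the 70th percentile and 3630 with no floor, against 1695. At least 1.5-fold lower were 2094 with the floor at the 30th percentile, 778 at the 70th and 3632 with none, against 1356. At least 2-fold higher were 449 at the 70th percentile and 2137 with no floor, against 777. At least 2-fold lower were 832 at the 30th percentile, 260 at the 70th and 2106 with none, against 516. No paired analysis was possible because each group holds 1 array.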

Other observations

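Cyclins and kinases outside the core cycle were also mostly higher. Of 9 measured, 7 had a higher signal with retinoic acid and 2 a lower one. The median log2 ratio was 0.32, and 1 gene passed 1.5-fold. That gene was Ccng2, which encodes cyclin G2, a cyclin known for its high level in resting cells and as a FOXO target. It read 264 in control and 999.7 with retinoic acid (3.78-fold higher), and its 2 probe sets gave log2 ratios of 1.92 and 1.44. Ccni read 3943 and 5695 (1.44-fold higher), with 4 probe sets from 0.41 to 0.90. Cdk14, a kinase gene of Wnt signalling, was 1.37-fold higher, and Ccnt1, a partner of the transcription kinase CDK9, was 1.31-fold higher.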
